A study of Mus musculus with 4 samples.

Results

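The 9 genes described here encode the cytotoxic granule proteins of lymphocytes and interferon gamma with its receptor: *Gzma*, *Gzmb*, *Gzmk* and *Gzmm* (granzymes), *Prf1* (perforin), *Nkg7*, *Ifng*, *Ifngr1* and *Ifngr2*. They were taken as a fixed list by gene ID from the 31,950 IDs that both gene expression libraries list, and all 9 were found. The libraries are scRNA-Seq of cells from the lamina propria of the proximal small intestine, enriched for T cells and innate lymphoid cells (ILCs) by negative selection. Of the libraries, 1 came from WT mice and the other from A20ZF7 mice, which carry point mutations in the seventh zinc finger of A20, the motif that binds linear (M1) ubiquitin. The knock-in allele is not restricted to a cell type. Each library pooled 2 mice at 12 weeks of age, with 60,000 cells collected, so each genotype has 1 library, the genotypes have no replicate libraries and no test between them was possible. Values are UMIs per 1,000,000 UMIs of a class (CPM). A range in parentheses is a 95% interval for counting error alone: exact Poisson for a CPM, exact conditional for a ratio of CPM (A20ZF7 over WT) and exact binomial for a share of barcodes.

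Granzymes are serine proteases that cytotoxic lymphocytes store in granules and release onto target cells. Perforin forms the pores through which granzymes reach the target's cytosol, and *Nkg7* encodes a membrane protein of the same granules that is needed for their release. Interferon gamma is secreted by CD8+ T cells, Th1 cells, natural killer (NK) cells and ILC1s, and it signals through a receptor of *Ifngr1* and *Ifngr2* chains that engage JAK kinases. In the intestine, epithelial, stromal and myeloid cells respond to it by making chemokines, antigen-processing proteins and GTPases that act on intracellular microbes. T-bet, encoded by *Tbx21*, and RUNX3 are the transcription factors best known to drive this program.

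The promoter windows of 4 members are shown because they hold, or lack, short motifs of T-box, RUNX and AP-1 factors. Each runs from 250 bases before to 50 bases after the RefSeq start on GRCm38.p6, 5′ to 3′ on the gene's strand, and capitals mark letters that match the T-box motif AGGTGT, the RUNX motif TGTGGT or the AP-1 motif TGANTCA on either strand.
Gzma (ENSMUSG00000023132), chr13:113100932-113101231, minus strand: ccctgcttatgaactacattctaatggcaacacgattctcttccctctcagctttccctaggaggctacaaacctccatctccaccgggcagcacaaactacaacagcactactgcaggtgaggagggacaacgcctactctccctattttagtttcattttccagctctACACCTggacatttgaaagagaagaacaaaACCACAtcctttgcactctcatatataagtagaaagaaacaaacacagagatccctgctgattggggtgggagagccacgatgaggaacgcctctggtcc
Gzmb (ENSMUSG00000015437), chr14:56262285-56262584, minus strand: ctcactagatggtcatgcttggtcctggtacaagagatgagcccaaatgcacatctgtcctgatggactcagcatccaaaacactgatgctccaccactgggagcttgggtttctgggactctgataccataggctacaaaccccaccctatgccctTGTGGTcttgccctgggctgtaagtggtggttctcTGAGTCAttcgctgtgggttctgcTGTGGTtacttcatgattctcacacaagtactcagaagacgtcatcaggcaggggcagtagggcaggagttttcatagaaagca
Prf1 (ENSMUSG00000037202), chr10:61297586-61297885, plus strand: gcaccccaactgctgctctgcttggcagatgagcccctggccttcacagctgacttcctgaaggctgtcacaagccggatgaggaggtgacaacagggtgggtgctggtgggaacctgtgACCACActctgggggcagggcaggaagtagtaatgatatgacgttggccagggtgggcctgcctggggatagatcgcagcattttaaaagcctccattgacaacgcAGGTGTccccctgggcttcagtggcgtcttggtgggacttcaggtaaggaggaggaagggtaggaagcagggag
Ifng (ENSMUSG00000055170), chr10:118440796-118441095, plus strand: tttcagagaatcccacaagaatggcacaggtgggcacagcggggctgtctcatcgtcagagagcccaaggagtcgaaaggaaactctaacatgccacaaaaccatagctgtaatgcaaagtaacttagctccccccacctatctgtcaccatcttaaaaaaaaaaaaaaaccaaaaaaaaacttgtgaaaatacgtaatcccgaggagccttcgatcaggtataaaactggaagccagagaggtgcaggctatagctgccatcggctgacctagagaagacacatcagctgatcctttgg
The *Gzma* and *Prf1* windows each held 1 T-box and 1 RUNX match. The *Gzmb* window held 2 RUNX matches and 1 AP-1 match, and the *Ifng* window held none of the 3 motifs. The *Nkg7* window held 1 T-box and 1 RUNX match, and that of *Gzmk* held 2 T-box matches. Across all 32,851 windows in the table, 13.7% held the T-box letters, 16.8% the RUNX letters and 7.81% the AP-1 letters. These matches describe the letters and do not show that a factor binds.

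After filtering, 19,721 WT barcodes with a median of 883 UMIs and 38,248 A20ZF7 barcodes with a median of 960 UMIs remained. Classes were set by the UMIs of lineage genes, none of them a member: 581 WT and 1,392 A20ZF7 barcodes were CD8 T, 380 and 1,961 CD4 T, 211 and 209 γδ T (gd T in the plots), 58 and 22 ILC1 or NK, 1,074 and 571 ILC2, and 458 and 642 ILC3. The other classes used were stromal (5,260 and 5,742), macrophage (121 and 251) and B (186 and 130), while 11,418 and 27,554 barcodes met no gate. Of genes outside the gates, *Lum*, a matrix gene, was at 861 CPM in WT stromal barcodes and 10.1 or less in the 6 WT lymphoid classes. *Ctss* was at 1,143 CPM in WT macrophage barcodes. The ILC gates and the A20ZF7 CD8 T gate were less clear. *Trbc2*, a T cell receptor gene, was at 297 CPM in WT and 274 CPM in A20ZF7 ILC2 barcodes, and 366 and 389 CPM in ILC3. It was at 559 and 555 CPM in CD8 T and 26.2 and 81.4 CPM in stromal barcodes. A20ZF7 ILC3 barcodes also held *Il17a* at 1,428 CPM and *Cd4* at 133 CPM. The share of T cells within the ILC gates was not tested. In CD8 T barcodes of WT and A20ZF7, *Foxp3* was at 5.35 and 49.6 CPM, *Il17a* at 120 and 1,027 CPM and *Klrd1* at 203 and 68.6 CPM. *Cd8b1* was closer, at 671 and 587 CPM. Stromal barcodes held *Foxp3* at 1.51 and 13.9 CPM. The share of other T cells among A20ZF7 CD8 T barcodes, and its part in their levels below, was not tested. The 22 A20ZF7 barcodes of the ILC1 or NK gate went against their name, with *Tyrobp*, an adaptor of NK receptors, at 0 UMIs against 1,096 CPM in WT, and *Igha* at 19,593 CPM against 485, so they are given by their gate alone. The 2 WT mice could be told apart by hashtag (7,015 and 3,704 filtered barcodes), and their values give the only spread between animals. The libraries shared 1,051 barcode sequences (5.33% of WT and 2.75% of A20ZF7 barcodes).

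Transcripts of the effector genes were also found where they should be absent. In stromal barcodes, *Gzma* was at 80.9 CPM in WT and 493 CPM in A20ZF7, *Gzmb* at 11.4 and 79.8, *Nkg7* at 31.9 and 81.6 and *Ifng* at 4.87 and 11.0. In barcodes of 10 to 100 UMIs, which hold little but free RNA and debris, *Gzma* was at 513 and 1,161 CPM, *Gzmb* at 134 and 209, *Nkg7* at 225 and 208 and *Ifng* at 43.8 and 27.0. Macrophage barcodes held *Gzma* at 275 and 787 CPM and B barcodes at 64.4 and 266 CPM. Plasma cell *Igha* was at 2,231 and 4,127 CPM in CD8 T, 2,431 and 3,914 in CD4 T and 1,138 and 3,092 in ILC2 barcodes. The level in barcodes of 10 to 100 UMIs thus differed between the libraries, with ratios of 2.26 (2.07–2.47) for *Gzma* and 1.56 (1.29–1.88) for *Gzmb*, and each level below is read against these floors.

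*Gzma*, whose product is a tryptase, was about as high in CD8 T barcodes of both pools and higher in A20ZF7 CD4 T and ILC2 barcodes, by 3.28 and 3.62 times. In CD8 T barcodes it was at 2,750 CPM (2,614–2,891) in WT and 2,825 CPM (2,746–2,905) in A20ZF7, a ratio of 1.03 (0.970–1.09). The WT mice had 2,740 and 2,733 CPM. In CD4 T barcodes *Gzma* was at 716 CPM (635–804) in WT and 2,348 CPM (2,288–2,410) in A20ZF7, a ratio of 3.28 (2.91–3.71). The WT mice differed here, at 488 and 1,156 CPM, and the A20ZF7 pool lay above both, by 4.81 times the lower and 2.03 times the higher. With the stricter gate, which left 20 WT and 145 A20ZF7 barcodes, the ratio was 1.57 (1.17–2.14), under 2-fold.

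The CD4 subsets all held more *Gzma* in A20ZF7. Th17-like barcodes (44 in WT and 1,058 in A20ZF7) had 1,206 and 2,544 CPM, a ratio of 2.11 (1.69–2.68), and the WT mice had 554 and 1,938 CPM. The WT value came from 78 *Gzma* UMIs in only 6 barcodes, and 63 of these UMIs lay in the mouse at 1,938 CPM. CD4 barcodes with no Th17 or *Foxp3* UMI had 653 and 1,932 CPM, a ratio of 2.96 (2.52–3.48). Treg-like barcodes, of which WT had only 11 with 5 *Gzma* UMIs, had a ratio of 7.31 (3.11–22.6). A *Gzma* UMI was seen in 16.6% of WT (13.0–20.7) and 46.2% of A20ZF7 (44.0–48.4) CD4 T barcodes, against 3.52% and 15.2% of stromal barcodes. With every barcode thinned to 500 UMIs the CD4 shares were 10.6% and 36.2%. At least 5 *Gzma* UMIs were found in 2.89% of WT and 18.6% of A20ZF7 CD4 T barcodes, against 0.437% and 2.65% of stromal ones. The median CD4 T barcode held 806 UMIs in WT and 1,072 in A20ZF7, the stromal one 1,018 and 893.

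ILC2s are innate producers of type 2 cytokines and are not classed as killer cells. Barcodes of the ILC2 gate nevertheless held the highest *Gzma* level of any class in the A20ZF7 library. ILC2 barcodes had 1,804 CPM (1,721–1,890) in WT and 6,521 CPM (6,305–6,742) in A20ZF7, a ratio of 3.62 (3.41–3.83). The WT mice had 2,042 and 1,453 CPM, both well under the A20ZF7 pool. The share of ILC2 barcodes with a *Gzma* UMI was 18.7% in WT (16.4–21.2) and 59.9% in A20ZF7 (55.7–63.9), or 16.2% and 54.6% at 500 UMIs, and the share with at least 5 UMIs was 9.68% and 37.8%. Median depth was alike, at 832 and 825 UMIs. Taking off the level of the 10 to 100 UMI barcodes left a ratio of 4.15.

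γδ T barcodes had 2,346 CPM (2,144–2,563) of *Gzma* in WT and 2,646 CPM (2,437–2,868) in A20ZF7, a ratio of 1.13 (0.999–1.27). This value depended on the gate: it was 3.96 with at least 2 UMIs each of T cell and lineage genes asked for (25 WT and 20 A20ZF7 barcodes) and 6.15 when barcodes were classed by whole profiles. *Trdc*, the constant gene of the δ chain on which the gate rests, was itself at 338 CPM in WT and 770 CPM in A20ZF7 barcodes of 10 to 100 UMIs, and its part in this was not tested. ILC3 barcodes had 104 CPM (74.6–142) in WT and 814 CPM (740–894) in A20ZF7, a ratio of 7.79 (5.63–11.1) that was 3.82 or 13.5 against either WT mouse, but each value was below the level in barcodes of 10 to 100 UMIs of its library, and the WT level overlapped that of stromal barcodes. ILC1 or NK barcodes had 14 and 10 *Gzma* UMIs. By level, WT ran from CD8 T through γδ T, ILC2, CD4 T and ILC1 or NK to ILC3, with no neighbouring intervals overlapping. In A20ZF7 the order was ILC2, CD8 T, γδ T, CD4 T, ILC3 and ILC1 or NK, where CD8 T and γδ T overlapped, as did ILC3 and ILC1 or NK.

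**Figure D1:**
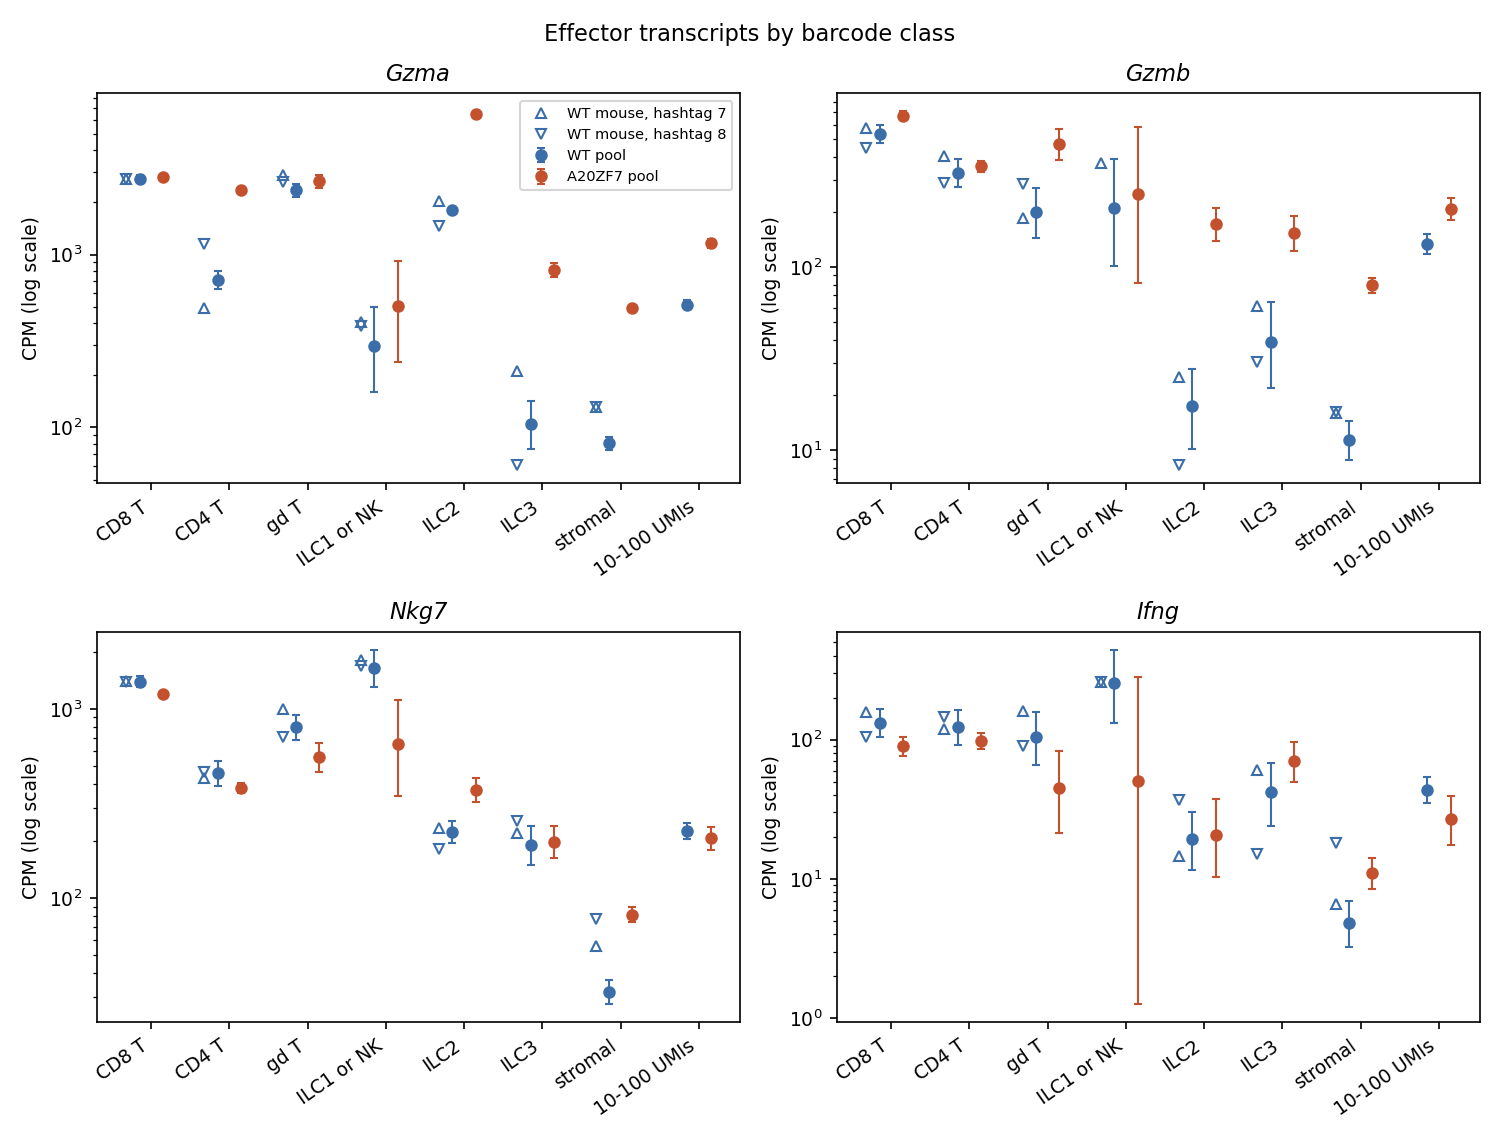
CPM on a log scale of *Gzma*, *Gzmb*, *Nkg7* and *Ifng* in 6 lymphoid classes, stromal barcodes and barcodes of 10 to 100 UMIs, with filled points for the WT (blue) and A20ZF7 (red) pools, bars for 95% counting intervals and open triangles for the WT mice with hashtag 7 or 8 (mice at 0 are not drawn). *Gzma* of CD4 T and ILC2 barcodes stands above both WT mice in A20ZF7, at 2,348 and 6,521 CPM, while in CD8 T barcodes the pools nearly coincide.

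*Gzmb*, whose product cleaves caspases in target cells, was highest in CD8 T barcodes of both pools and was past 2-fold higher in A20ZF7 in γδ T, ILC2 and ILC3 barcodes, although the ILC levels did not exceed free RNA. CD8 T barcodes had 534 CPM (475–598) in WT and 670 CPM (632–710) in A20ZF7, a ratio of 1.26 (1.11–1.43). The WT mice had 574 and 446 CPM, so the pools differed by about as much as the animals did. Among CD8 T barcodes with a *Cd8b1* UMI, which carry the β chain of conventional CD8 T cells, *Gzmb* was at 392 CPM in WT and 697 CPM in A20ZF7, a ratio of 1.78 (1.47–2.17), above both WT mice (465 and 328 CPM). Without a *Cd8b1* UMI it was at 710 and 632 CPM, a ratio of 0.890 (0.746–1.06). *Gzma* split the same way, with a ratio of 1.32 (1.21–1.44) in the first set and 0.849 (0.786–0.917) in the second. Barcodes without a *Cd8b1* UMI can still be CD8αβ cells at this depth.

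In CD4 T barcodes *Gzmb* was at 326 CPM (272–388) in WT and 354 CPM (331–379) in A20ZF7, a ratio of 1.09 (0.901–1.32), beside the *Gzma* ratio of 3.28 in the same barcodes. With a minimum of 1,000 UMIs these ratios were 2.17 (1.53–3.16) for *Gzmb* and 2.87 (2.48–3.35) for *Gzma*, and with the level of barcodes of 10 to 100 UMIs taken off they were 0.758 and 5.86. γδ T barcodes had 199 and 471 CPM, a ratio of 2.37 (1.64–3.47), with WT mice at 185 and 283 CPM (ratios of 2.55 and 1.66 against either, the latter under 2-fold). The pooled ratio was 5.5 with the stricter gate, 7.32 by whole profiles, 5.93 with a minimum of 1,000 UMIs and 4.04 with the level of barcodes of 10 to 100 UMIs taken off. ILC2 barcodes had 17.4 CPM (10.1–27.8) from 17 UMIs in WT and 172 CPM (138–211) from 91 UMIs in A20ZF7, a ratio of 9.91 (5.86–17.7) that was 6.83 or 20.8 against either WT mouse and 4.94 by whole profiles. ILC3 barcodes had 39.2 CPM (21.9–64.6) and 154 CPM (122–190), a ratio of 3.92 (2.24–7.32) that was 2.07 (0.969–4.92) with a minimum of 1,000 UMIs. Both ILC levels were below those of barcodes of 10 to 100 UMIs in the same library (134 and 209 CPM), though the A20ZF7 ILC2 interval reached that level. Stromal barcodes had 11.4 and 79.8 CPM of *Gzmb*, a ratio of 6.99 (5.41–9.16). In A20ZF7 both ILC intervals lay above the stromal level. In WT the ILC2 interval reached the stromal level and the ILC3 interval lay above it. The part of free RNA in the ILC values was not tested.

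The other granule genes gave few UMIs. *Gzmk*, a granzyme of memory CD8 T cells, was at 148 CPM (118–184) in WT and 112 CPM (97.1–129) in A20ZF7 CD8 T barcodes, a ratio of 0.759 (0.584–0.993), with 140 and 161 CPM in the WT mice. That ratio was 1.02 at a minimum of 1,000 UMIs and 1.21 by whole profiles. Of lymphoid *Gzmk* UMIs, 81.4% in WT and 57.2% in A20ZF7 lay in CD8 T barcodes. *Prf1* was at 42.8 CPM (27.4–63.7) in WT and 43.2 CPM (34.0–54.2) in A20ZF7 CD8 T barcodes, a ratio of 1.01 (0.630–1.67), with 30.2 and 52.2 CPM in the WT mice, and it gave 46 and 131 UMIs over all lymphoid classes. *Gzmm*, a granzyme of NK cells, gave 9 and 16 UMIs over all lymphoid classes, and no difference was detectable at this depth.

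*Nkg7* was highest in CD8 T barcodes and in WT ILC1 or NK barcodes. CD8 T barcodes had 1,392 CPM (1,296–1,493) in WT and 1,192 CPM (1,141–1,244) in A20ZF7, a ratio of 0.856 (0.788–0.931), with 1,409 and 1,377 CPM in the WT mice, but the ratio was 1.01 with the stricter gate. CD4 T barcodes had 455 and 382 CPM, a ratio of 0.839 (0.714–0.989), and the WT mice had 429 and 462 CPM. γδ T barcodes had 796 and 556 CPM, a ratio of 0.698 (0.549–0.886) that was 1.05 with the stricter gate and 2.49 by whole profiles. In the ILC1 or NK gate, WT had 1,644 CPM (1,299–2,051) from 78 UMIs and A20ZF7 651 CPM (347–1,114) from 13 UMIs, a ratio of 0.396 (0.202–0.718) between sets of barcodes that did not look alike. ILC2 barcodes had 223 CPM (194–254) in WT and 372 CPM (322–428) in A20ZF7, a ratio of 1.67 (1.37–2.04), with WT mice at 233 and 182 CPM. The WT ILC2 level matched that of barcodes of 10 to 100 UMIs (225 CPM) and the A20ZF7 level was above it (208 CPM). ILC3 barcodes had 191 and 198 CPM, a ratio of 1.04 (0.764–1.42), both under that level.

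*Ifng* was lower per UMI in A20ZF7 CD8 T barcodes than in WT and did not differ beyond counting error in CD4 T barcodes as a whole. CD8 T barcodes had 132 CPM (104–166) from 74 UMIs in WT and 89.9 CPM (76.3–105) from 156 UMIs in A20ZF7, a ratio of 0.681 (0.513–0.910). The WT mice had 159 and 104 CPM, and the A20ZF7 pool was below both, by a margin from the lower mouse (ratio 0.861) that was smaller than the gap between the mice. In barcodes of 10 to 100 UMIs the *Ifng* ratio was 0.616 (0.380–0.966), so free RNA moved the same way, while in stromal barcodes it was 2.26 (1.43–3.65). The ratio was 0.528 (0.352–0.798) without and 0.881 (0.583–1.36) with a *Cd8b1* UMI. CD4 T barcodes had 124 CPM (91.7–164) and 97.8 CPM (85.8–111), a ratio of 0.789 (0.578–1.10), with WT mice at 118 and 144 CPM. Th17-like barcodes had 139 CPM from 9 UMIs and 126 CPM from 177 UMIs, a ratio of 0.907 (0.467–2.02). CD4 barcodes with no Th17 or *Foxp3* UMI had 128 CPM (89.5–177) and 59.4 CPM (40.4–84.4), a ratio of 0.465 (0.278–0.773), below both WT mice (151 and 101 CPM).

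Among the innate-like classes *Ifng* was sparse. γδ T barcodes had 22 UMIs in WT and 10 in A20ZF7, 104 and 44.8 CPM, a ratio of 0.430 (0.182–0.946) that was 1.45 by whole profiles. The ILC1 or NK gate had 12 UMIs in WT (253 CPM, 131–442), the highest WT level of any class although its interval reached those of CD8 and CD4 T barcodes, and 1 UMI in A20ZF7. ILC3 barcodes had 41.8 CPM (23.9–67.9) and 70.3 CPM (49.8–96.5), a ratio of 1.68 (0.916–3.23), and ILC2 barcodes 19.4 and 20.8 CPM, both under the level of barcodes of 10 to 100 UMIs. Of CD4 T barcodes, 8.16% in WT and 9.74% in A20ZF7 held an *Ifng* UMI, or 4.75% and 5.07% at 500 UMIs. The stromal shares were 0.475% and 1.01%.

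Of the genes with a mean of at least 50 CPM and at least 20 UMIs in a class, 2-fold or more with an interval off 1 upward was passed by 3.23% in CD8 T, 2.67% in CD4 T, 3.8% in γδ T, 3.58% in ILC2 and 6.11% in ILC3 barcodes, and downward by 1.91%, 1.2%, 3.35%, 2.99% and 4.22%. Of the 9 members, 6, 5, 5, 4 and 5 met the minimum in these classes. Those past 2-fold upward were *Gzma* in CD4 T, *Gzmb* in γδ T and both genes in ILC2 and ILC3 barcodes, and downward *Ifng* in γδ T barcodes. None did in CD8 T barcodes. The members were few, and no share of them is read against these percentages.

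**Figure D2:**
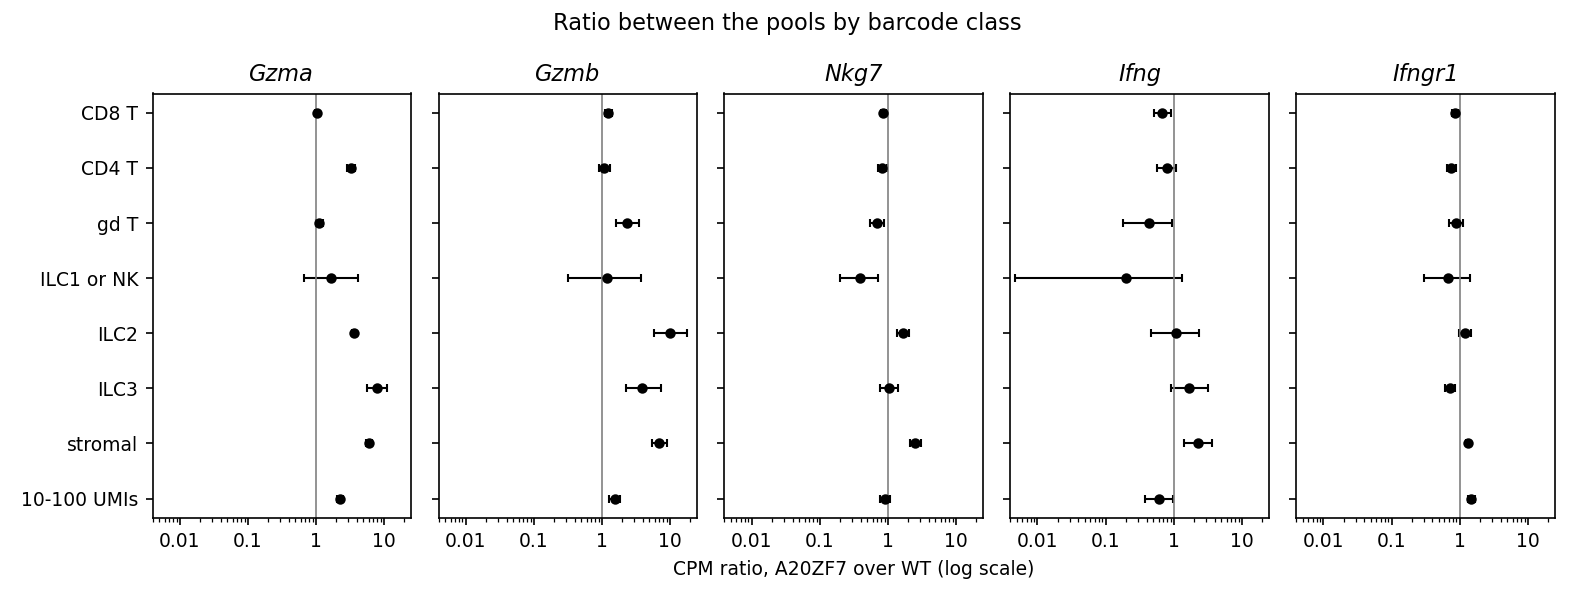
Ratio of CPM, A20ZF7 over WT, on a log scale for *Gzma*, *Gzmb*, *Nkg7*, *Ifng* and *Ifngr1* in 6 lymphoid classes, stromal barcodes and barcodes of 10 to 100 UMIs, with bars for 95% counting intervals and a grey line at 1. *Gzma* sits at 3.28 in CD4 T and 3.62 in ILC2 barcodes against 1.03 in CD8 T, while *Ifng* sits below 1 in all 3 T cell classes, although its CD4 T interval crosses 1.

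The libraries differed in class sizes and in which classes held the members' UMIs. CD4 T barcodes were 13.8% of WT and 40.9% of A20ZF7 lymphoid barcodes, and ILC2 barcodes 38.9% and 11.9%. CD4 T barcodes held 6.84% of WT lymphoid *Gzma* UMIs (6.09–7.65) and 37.8% of those in A20ZF7, while ILC2 barcodes held 42.7% and 22.8%. For *Ifng*, CD4 T barcodes held 25.5% (49 of 192 UMIs) in WT and 52.4% (238 of 454) in A20ZF7, and CD8 T barcodes 38.5% and 34.4%. CD8 T barcodes held the most *Gzmb* (58.4% and 50.4%) and *Nkg7* (52.1% and 60.2%) in both pools. Over the 6 lymphoid classes together, *Gzma* was at 1,607 and 2,756 CPM, a ratio of 1.72 (1.66–1.78), *Gzmb* at 199 and 421 CPM, a ratio of 2.12 (1.93–2.34), and *Ifng* at 74.5 and 82.8 CPM, a ratio of 1.11 (0.937–1.32). The *Ifng* ratio over all lymphoid barcodes thus stood above those within CD8 T (0.681) and CD4 T (0.789) barcodes. Class shares also reflect the negative selection.

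**Figure D3:**
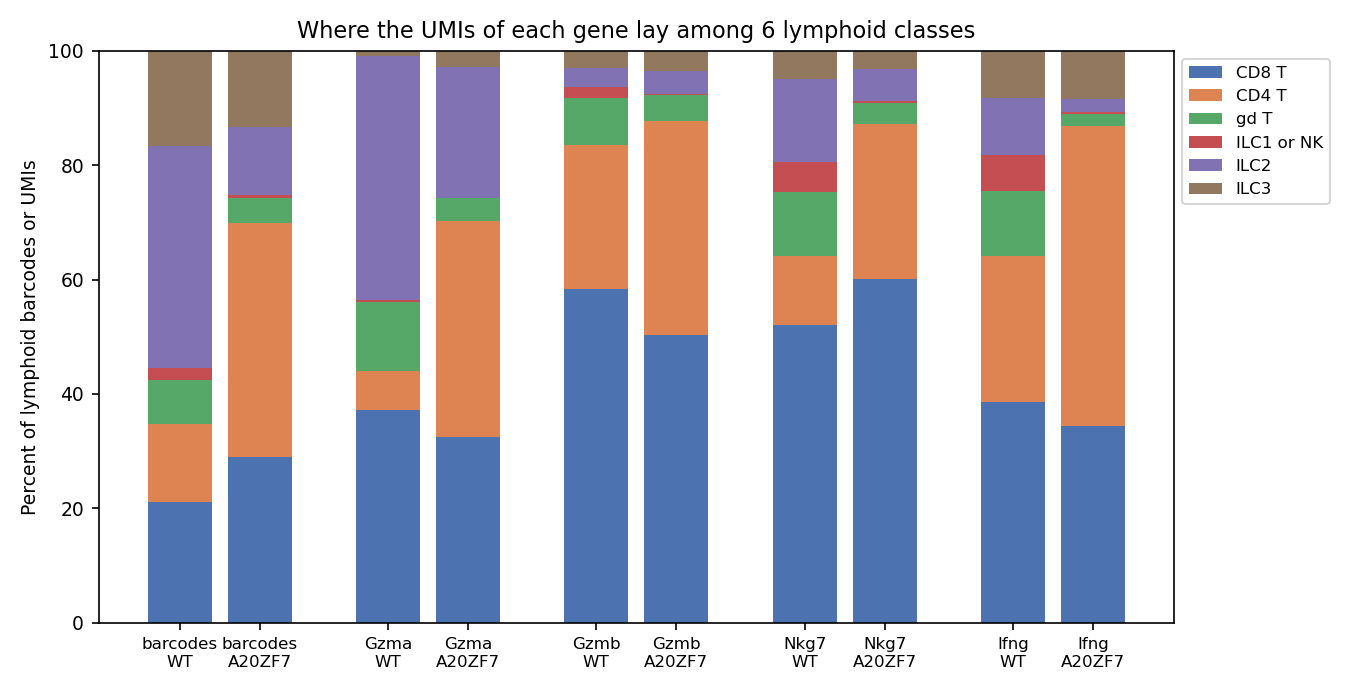
Stacked bars of the percent of lymphoid barcodes, and of the UMIs of *Gzma*, *Gzmb*, *Nkg7* and *Ifng*, in each of 6 lymphoid classes, with WT and A20ZF7 side by side. The CD4 T part of *Gzma* grows from 6.84% to 37.8% and that of *Ifng* from 25.5% to 52.4%, while CD8 T barcodes keep the largest part of *Gzmb* and *Nkg7*.

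*Gzma* and *Gzmb* were often found in the same barcodes. Among WT CD8 T barcodes, 74.5% of the 153 with a *Gzmb* UMI also had a *Gzma* UMI, against 29.4% of those without, at median depths of 770 and 763.5 UMIs. In A20ZF7 CD8 T barcodes these shares were 72.2% of 522 and 42.9%, at 1,182 and 966.5 UMIs. In CD4 T barcodes they were 48.3% of 58 against 10.9% in WT and 56.0% of 475 against 43.1% in A20ZF7. *Gzma* in A20ZF7 CD4 T barcodes was thus common also where no *Gzmb* UMI was seen. A *Gzmb* UMI was found in 39.3% of the 61 WT CD8 T barcodes with an *Ifng* UMI and 24.8% of those without, but in 35.3% of 136 and 37.7% in A20ZF7. In CD4 T barcodes these shares were 16.1% of 31 and 15.2% in WT and 29.3% of 191 and 23.7% in A20ZF7, where barcodes with an *Ifng* UMI were deeper (median 1,285 against 1,053 UMIs).

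The pathway genes around the members were taken from 3 lists. The first held 13 genes linked to *Ifng* induction or to effector lymphocytes. Among them were the chemokine genes *Xcl1* and *Ccl5*, so not all are inducers. In CD8 T barcodes 13 were tested, with 1 past 2-fold upward and 2 downward. In CD4 T barcodes 12 were tested, with 2 upward and 3 downward. Median ratios were 1.10 and 0.955, beside 1.01 over all genes tested in each class. Of all genes tested, 3.23% passed upward and 1.91% downward in CD8 T barcodes, and 2.67% and 1.2% in CD4 T. In γδ T, ILC2 and ILC3 barcodes 3.58% to 6.11% passed upward and 2.99% to 4.22% downward. Upward, *Hopx*, a homeobox gene of effector lymphocytes, was at 99.9 and 259 CPM in CD8 T barcodes (2.59, 1.96–3.48) and 119 and 314 CPM in CD4 T (2.64, 1.96–3.62), and *Zeb2*, a factor of terminal effector cells, at 170 and 430 CPM in CD4 T (2.53, 1.98–3.29) and 85.3 and 314 CPM in γδ T (3.68, 2.17–6.56). *Hopx* passed upward in CD8 T, CD4 T, γδ T, ILC2 and ILC3 barcodes alike. The libraries were counted with different gene lists, and the part of that in this even shift was not tested. Downward, *Tbx21* was at 112 and 49.6 CPM in CD8 T barcodes (ratio 0.441, 0.315–0.620), 96.1 and 21.0 CPM in CD4 T (0.218, 0.140–0.341) and 128 and 17.9 CPM in γδ T (0.140, 0.0356–0.402), where in CD4 and γδ T it was the fifth by UMIs of those past 2-fold and was named after its values were seen. *Il12rb2*, a chain of the interleukin-12 receptor, was at 493 and 99.9 CPM in CD4 T barcodes (0.202, 0.167–0.246) and 332 and 112 CPM in γδ T (0.338, 0.205–0.540). *Xcl1*, a chemokine of activated CD8 T and NK cells, was at 403 and 87.0 CPM in CD8 T barcodes (0.216, 0.174–0.266) and 245 and 29.6 CPM in CD4 T (0.121, 0.0876–0.165). In γδ T barcodes 12 were tested, with *Hopx* and *Zeb2* upward and the 3 downward genes just named downward. ILC2 barcodes had 8 tested, with *Ccl5*, *Il18r1* and *Hopx* upward and 0 downward. *Ccl5*, a chemokine stored with granules in killer lymphocytes, was at 128 and 1,283 CPM there (10.1, 8.30–12.3). In ILC3 barcodes 12 were tested, with 3 upward and 2 downward, and *Ccl5* was at 201 and 1,349 CPM (6.71, 5.30–8.60). *Ccl5* was also 6.24 times higher (5.78–6.74) in A20ZF7 stromal barcodes, at 132 and 824 CPM.

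Of 20 granule and killing genes, 7 to 12 were tested per lymphoid class and 1 or 2 passed 2-fold upward, with 1 downward in CD8 T, CD4 T and ILC2, 3 in ILC3 and 0 in γδ T barcodes. Median ratios were 1.02 in CD8 T, 1.03 in CD4 T, 0.985 in γδ T, 1.28 in ILC2 and 1.10 in ILC3 barcodes, beside 1.01, 1.01, 1.01, 0.981 and 1.02 over all genes tested. Of all genes tested in these classes, 2.67% to 6.11% passed 2-fold upward and 1.2% to 4.22% downward. *Ctsw*, a protease of cytotoxic lymphocytes, was at 360 and 158 CPM in CD8 T barcodes (0.440, 0.365–0.530) and 154 and 56.3 CPM in CD4 T (0.365, 0.268–0.502). *Rab27a*, which docks granules at the membrane, was at 53.1 and 134 CPM in CD4 T barcodes (2.53, 1.63–4.14) and 35.7 and 94.5 CPM in ILC2 (2.64, 1.68–4.20). *Stx11*, a syntaxin of granule release, passed 2-fold upward in CD8 T, CD4 T, γδ T, ILC3 and macrophage barcodes alike. The libraries were counted with gene lists of different length, and the part of that in such even shifts was not tested.

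*Ifngr1*, the ligand-binding chain of the receptor, was found in every class. In WT it was at 738 CPM (514–1,026) in ILC1 or NK, 735 (624–860) in γδ T, 697 (616–786) in ILC3, 589 (516–670) in CD4 T and 582 (520–648) in CD8 T barcodes, levels whose neighbouring intervals overlap, and lower in macrophage (325, 238–433), stromal (286, 273–300) and ILC2 (269, 237–303) barcodes, whose intervals overlap too. B barcodes had the least, at 21.5 CPM (12.0–35.4). In A20ZF7, CD4 T barcodes had 447 CPM (421–474), a ratio of 0.758 (0.657–0.877) below both WT mice (622 and 534 CPM), and ILC3 barcodes 501 CPM (444–565), a ratio of 0.719 (0.605–0.855) below both mice (663 and 724 CPM). The CD4 T level in A20ZF7 was under that of barcodes of 10 to 100 UMIs (460 CPM) and the ILC3 interval reached it. The CD4 T ratio was 1.07 with the stricter gate and 0.213 with the stromal level taken off, and the ILC3 ratio was 0.29 with the stromal level and 0.107 with the level of barcodes of 10 to 100 UMIs taken off. CD8 T barcodes had 504 CPM, a ratio of 0.867 (0.762–0.987).

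Stromal barcodes, 1 of the cell types that receive the signal, had 382 CPM of *Ifngr1* (366–399) in A20ZF7, a ratio of 1.33 (1.25–1.42) to the WT pool. The 2 WT mice had 326 and 328 CPM, above the WT pool, which also holds barcodes without a hashtag call, and against either mouse the ratio was 1.16 or 1.17. Both pools were below the barcodes of 10 to 100 UMIs, which held 308 CPM in WT and 460 CPM in A20ZF7 (ratio 1.49, 1.31–1.69). The part of free RNA in the stromal difference was not tested. Macrophage barcodes had 337 CPM (270–414), a ratio of 1.04 (0.719–1.51). B barcodes had 126 CPM (86.4–176), a ratio of 5.85 (3.09–11.6), at median depths of 3,648.5 and 1,950.5 UMIs and under the same levels. *Ifngr2*, the chain that recruits JAK2, was highest in macrophage barcodes among the larger classes, at 98.8 CPM (54.0–166) from 14 UMIs in WT and 71.9 CPM (43.3–112) from 19 UMIs in A20ZF7, a ratio of 0.727 (0.346–1.57). In A20ZF7 that interval overlapped the ILC2 one. *Ifngr2* was at 25.7 and 27.7 CPM in stromal barcodes (1.08, 0.858–1.36), 28.6 and 54.8 CPM in ILC2 (1.92, 1.10–3.34) and 8.92 and 11.5 CPM in CD8 T barcodes (1.29, 0.470–4.40).

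Of 22 signalling and target genes downstream of the receptor, 15 were tested in stromal barcodes, 8 passed 2-fold upward in A20ZF7 and 0 downward, where 3.77% of all genes tested passed upward and 1.49% downward. Their median ratio was 2.01, against 0.980 over all genes. *Iigp1*, an interferon-inducible GTPase, was at 129 and 465 CPM (3.61, 3.33–3.91), with 152 and 135 CPM in the WT mice. *Cxcl9*, a chemokine for CXCR3+ T cells, was at 57.9 and 175 CPM (3.03, 2.67–3.43), with 97.2 and 50.5 CPM in the mice. *Psmb9*, an immunoproteasome subunit, was at 84.1 and 174 CPM (2.06, 1.85–2.30). The other 7 did not pass, and *Gbp2*, a guanylate-binding protein named after its values were seen, was at 128 CPM both in the A20ZF7 pool and in the WT mouse with hashtag 8. The 8 genes that passed were at least 1.5 times higher in the A20ZF7 pool than in either WT mouse, a looser mark than 2-fold. Not all stayed past 2-fold against the higher mouse. *Cxcl9* did not, nor did *Psmb9*, at 174 CPM in the A20ZF7 pool and 103 and 88.4 CPM in the mice. The mice account for 1,177 and 417 of the 5,260 WT stromal barcodes, and most of the others had no hashtag call. The WT pool lay below both mice for *Iigp1* and *Psmb9*, though not for *Cxcl9*. *Iigp1* was at 129 CPM in A20ZF7 barcodes of 10 to 100 UMIs and 74.3 CPM in lymphoid barcodes, and *Cxcl9* at 43.6 and 14.4 CPM, all below their stromal level. Not all 8 genes were like this. In the A20ZF7 library 7 were above the level of barcodes of 10 to 100 UMIs and 5 above the lymphoid level. *Psmb9* was at 203 CPM in A20ZF7 lymphoid barcodes, above its stromal level. The part of lymphoid free RNA in these genes was not tested. In barcodes of 10 to 100 UMIs the ratio was 2.34 for *Iigp1*, 1.62 for *Cxcl9* and 1.15 for *Psmb9*. Many of these genes answer to other interferons too, and which signal raised them was not tested.

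Other receiving classes differed from stromal barcodes in these counts. Of 18 genes tested in macrophage barcodes 0 passed 2-fold upward or downward, where 3.9% and 3.08% of all genes did, with a median ratio of 1.12 from 121 and 251 barcodes, and the difference from stromal barcodes was not tested. ILC3 barcodes had 4 of 17 upward, among them *Jak2* and *Iigp1*, and 1 downward (*Cxcl10*, at 246 and 98.1 CPM). CD8 T barcodes had 1 of 13 and CD4 T barcodes 1 of 14 upward, in both cases *Cd274*, which encodes the checkpoint ligand PD-L1, at 44.6 and 90.5 CPM (2.03, 1.32–3.23) and 27.8 and 90.4 CPM (3.25, 1.78–6.61). γδ T barcodes had 1 of 17 upward, and ILC2 barcodes *Iigp1* alone of 15, at 34.7 and 96.4 CPM (2.78, 1.76–4.42), with 0 downward in either. Of all genes tested, 6.11% passed upward and 4.22% downward in ILC3 barcodes. The upward shares were 3.23% in CD8 T, 2.67% in CD4 T, 3.8% in γδ T and 3.58% in ILC2 barcodes. Counts of 1 gene are not read against these shares.

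**Figure D4:**
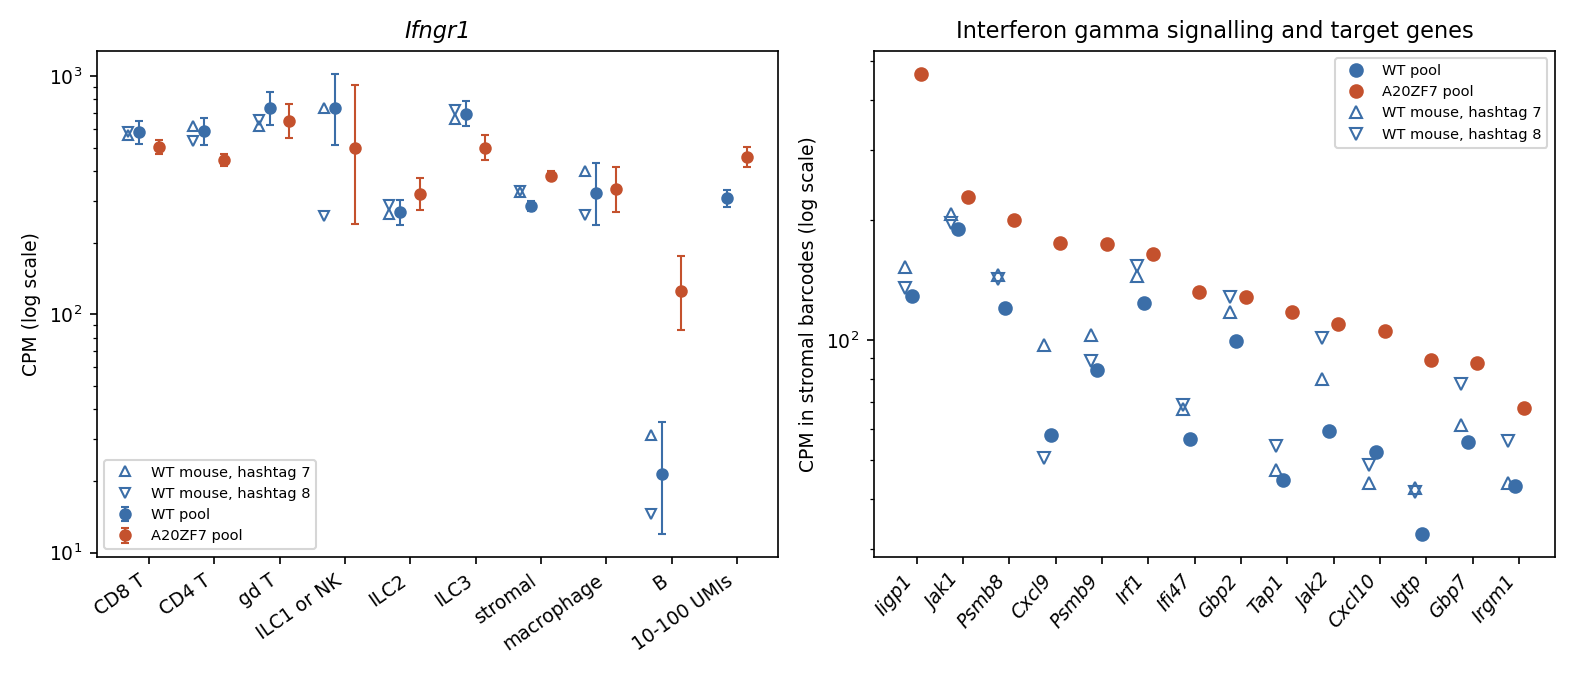
Left, CPM on a log scale of *Ifngr1* in 6 lymphoid classes, stromal, macrophage and B barcodes and barcodes of 10 to 100 UMIs, with filled points for the pools, bars for 95% counting intervals and open triangles for the WT mice. Right, CPM on a log scale in stromal barcodes of the signalling and target genes tested and reported, where the A20ZF7 pool (red) lies above both WT mice for *Iigp1* and *Cxcl9*, at 465 and 175 CPM.

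Across 16 points, the 8 lymphoid classes in each library (with the CD4 subsets apart), the genes whose log2(CPM + 10) followed each member most closely among 3,286 were counted by Pearson's r, as a description, since points of a library share its depth and free RNA. *Nkg7* was followed by *Ccl4* (0.88), *Klrd1* (0.86) and *Ccl5* (0.82), and *Prf1* by *Svbp* (0.82), *Klrd1* (0.82) and *Cd160* (0.81). *Gzmb* was followed by *Ms4a4b* (0.92), *Gramd3* (0.90) and *Trat1* (0.90), and *Ifng* by *Traf3ip3*, *Psme2* and *Ubac2* (0.86, 0.86 and 0.85). Among those that followed *Gzma* were *Rps19* (0.81) and *Rpl18* (0.81), which are ribosomal protein genes.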

How the data were processed

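The authors made the libraries with a 5′ kit and deposited UMI counts per gene and barcode from Cell Ranger, aligned to mm10. The labels name version 7.1, while the headers of the gene expression files name 8.0.0. The files list 33,696 (WT) and 32,285 (A20ZF7) genes with no filter on cells. The antibody counts labelled A20ZF7 were identical to those of WT and were not used.

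Barcodes with 200 to 2,500 genes, at most 15% mitochondrial counts and at least 500 UMIs were kept. WT barcodes with 2 hashtags (HTODemux, quantile 0.99, Seurat 5.3.0 in R 4.3.3) were removed; other doublets stayed in. A lymphoid gate needed UMIs of lineage genes and at most 1 UMI of other-cell genes. Thinning left out 54 WT and 1,352 A20ZF7 barcodes, which fell under 500 UMIs over the shared gene IDs. Genes named are the 9 members, up to 4 of the most counted of those past 2-fold in 3 lists (exceptions are marked), the 3 genes most like a member, and markers used to check the gates. The members, lists and gates were chosen with earlier results of these data known. A floor of 3 UMIs over the filtered barcodes is 0.130 CPM in WT and 0.0682 in A20ZF7. Promoters came from RefSeq tables of GRCm38.p6, where all 9 members matched. Python 3.11.15, numpy 2.4.6, scipy 1.17.1, pandas 2.3.3 and matplotlib 3.10.9 were used. The code for ratios was run on simulated Poisson counts. These hold no spread between mice, free RNA or gate error, so that run says nothing of those errors. Values of 2 genes that these rules would name are not reported here. With 1 library per genotype, no differential test was run.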

Additional observations from a re-analysis of the deposited data

Results flagged for a closer look

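*Nkg7* moved in opposite directions between innate classes. Its CPM ratio, A20ZF7 over WT, was 1.67 in ILC2 barcodes and 0.396 in those of the ILC1 or NK gate, with both counting intervals off 1 and the A20ZF7 pool outside the range of both WT mice in each. The difference between the classes was not tested, and the A20ZF7 barcodes of the ILC1 or NK gate, 22 in number, lacked *Tyrobp*.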

How the results depend on the processing

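No paired analysis was possible because each genotype has 1 library. Depth limits *Gzmm*, *Prf1* and *Ifng*, whose classes often held fewer than 20 UMIs. Ratios are A20ZF7 over WT. With each WT mouse in turn as WT, the *Gzma* ratio was 2.03 to 4.81 in CD4 T, 3.82 to 13.5 in ILC3, 3.19 to 4.49 in ILC2 and 0.917 to 1.01 in γδ T barcodes, the *Gzmb* ratio 6.83 to 20.8 in ILC2, 1.17 to 1.5 in CD8 T and 0.876 to 1.23 in CD4 T, and the *Ifngr1* ratio 1.16 to 1.17 in stromal barcodes. With a minimum of 1,000 UMIs, *Gzma* was 1.42 in CD8 T, 2.87 in CD4 T, 1.63 in γδ T and 3.19 in ILC2, *Gzmb* 1.82 in CD8 T and 2.17 in CD4 T, *Nkg7* 0.945 and *Gzmk* 1.02 in CD8 T. With the stricter gate, *Gzma* was 0.948 in CD8 T, 1.57 in CD4 T and 3.96 in γδ T, *Gzmb* 1.46 and *Nkg7* 1.01 in CD8 T, *Nkg7* 1.05 in γδ T and *Ifngr1* 1.07 in CD4 T. With barcodes classed by whole profiles, *Gzma* was 0.953 in CD8 T, 4.75 in CD4 T, 6.15 in γδ T and 3.97 in ILC2, *Gzmb* 1.35 in CD4 T, *Gzmk* 1.21 in CD8 T, *Nkg7* 2.49 and *Ifng* 1.45 in γδ T. With the level of barcodes of 10 to 100 UMIs taken off, *Gzma* was 0.744 in CD8 T, 5.86 in CD4 T, 0.81 in γδ T and 4.15 in ILC2, and *Gzmb* 0.758 in CD4 T. With the stromal level taken off, chosen after seeing the data, *Gzma* was 0.874 in CD8 T and 0.95 in γδ T, and *Gzmb* 0.872 in CD4 T. The causes were not tested. Keeping WT barcodes with 2 hashtags, dropping the UMI minimum, allowing 5,000 genes, and leaving mitochondrial, ribosomal and immunoglobulin counts out of the total left all 26 ratios within their intervals. Some subtractions gave no value, as the level was at or under the one taken off, such as *Gzma* and *Gzmb* in ILC3 barcodes.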

Other observations

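Surface antibodies, available for WT alone, gave a view of the same barcodes that the gates did not use. The CD4 antibody had a median of 29.3 per 10,000 antibody UMIs in CD4 T barcodes and 11.1 or less in the other classes, the CD8a antibody 26.3 in CD8 T barcodes and 18.7 or less elsewhere, and the KLRG1 antibody 36.3 in ILC2 barcodes and 29.0 or less elsewhere. The NK1.1 antibody did not stand out in ILC1 or NK barcodes, at 27.1 against 24.5 to 27.4.

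In WT γδ T barcodes, CD103, the integrin that tethers lymphocytes to epithelium, had a median of 43.1 per 10,000 antibody UMIs in the 50 with a *Gzma* UMI and 30.5 in the 161 without. For *Gzmb* the medians were 48.7 in 25 and 32.8 in 186, while those of KLRG1 went the other way, at 17.1 and 28.4. Stromal and B barcodes had CD103 medians of 32.0 and 32.6. In CD8 T barcodes with and without a *Gzma* UMI CD103 had medians of 36.8 and 34.5, and in ILC2 barcodes 32.4 and 31.8. LAMP1, a granule membrane protein that reaches the surface on release, had medians of 19.6 and 19.9 in CD8 T barcodes with and without a *Gzma* UMI and 25.4 and 21.2 in CD4 T barcodes. In CD4 T barcodes with and without a *Gzmb* UMI its medians were 18.3 and 22.4, and with and without an *Nkg7* UMI 21.1 and 22.3. Stromal barcodes had a LAMP1 median of 27.6, above all of these. The antibody medians are values of pooled barcodes from 2 mice, with no test.

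*Il17a*, the Th17 cytokine gene, was at 120 CPM in WT and 1,027 CPM in A20ZF7 CD8 T barcodes, beside 19.5 and 234 CPM in stromal barcodes, and *Areg*, a repair factor of Tregs and ILC2s, at 23.2 and 411 CPM in CD8 T and 466 and 1,134 CPM in ILC2 barcodes. WT ILC2 barcodes held *Il17a* at 544 CPM and A20ZF7 ones at 287 CPM. The part of other T cells within the CD8 T gate in its values was not tested.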
